A study of Saccharomyces cerevisiae with 18 samples.

Results

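The 38 nuclear genes for subunits of the mitochondrial respiratory chain and the ATP synthase were examined in 3 deletion strains of the budding yeast Saccharomyces cerevisiae. The genes were taken by systematic name from a list drawn up by function, and all 38 were present among the 6205 open reading frames (ORFs) of the deposited table. They comprised 4 genes of complex II, 9 of complex III, 9 of complex IV, 2 for cytochrome c, NDI1, and 13 of the ATP synthase, of which 5 encode the catalytic F1 part and 8 the stalk and membrane sector. Each of the 18 arrays compared total RNA of a null strain in 1 channel with that of the wild type in the other channel, after growth in YEPD, a rich medium containing glucose.

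The wild type was strain UCC6389, and the nulls were UCC6390 for dot4, UCC6392 for ubp8 and UCC6393 for both genes, the dot4ubp8 null of the labels. On 1 dot4ubp8 null array, that of set 3 with null RNA in channel 2, the label pairs the double genotype with the strain name UCC6392. Apart from that array, the labels name 1 strain for each genotype. No further alleles, strain background or age of the cultures are given in the sources used here. DOT4, listed below as UBP10, and UBP8 encode ubiquitin proteases that act on histone H2B, and Ubp8 belongs to the SAGA coactivator. Each genotype had 6 arrays in 3 numbered sets, a set being a pair with null RNA in opposite channels. Whether the sets were separate cultures is not stated, and p-values therefore reflect only the spread among these samples, which may be technical. The design set each null against the wild type, and it allowed the nulls to be set against each other and the dot4ubp8 null against the sum of the single nulls.

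Values are given as log2 of null over wild type after centring each array on its median, and the mean of the 2 arrays of a set counted as 1 replicate (n = 3 set means per genotype). The direction of division rests on the deleted genes, because UBP10 and UBP8 were low on all 12 arrays lacking each only when the values ran as channel 2 over channel 1. Read in the order of the labels, every sign below would be turned. UBP10 read between -5.58 and -3.88 on those arrays and UBP8 between -3.79 and -1.49. Errors are standard errors of the limma fit unless an SD is named, and a gene was called when its Benjamini-Hochberg adjusted p over all 6205 ORFs was under 0.05. Changes were small, so calls are also set against the share of all ORFs called. A change in a whole culture does not tell a shift in every cell from a shift in the make-up of the culture, and these cannot be told apart here.

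The respiratory chain passes electrons from succinate and NADH to oxygen. Complex II oxidises succinate, and in budding yeast the single-subunit enzyme Ndi1 oxidises matrix NADH in place of a proton-pumping complex I. Both reduce ubiquinone, complex III transfers the electrons to cytochrome c, and complex IV reduces oxygen. The proton gradient drives the ATP synthase, whose F1 part makes ATP while a ring in the membrane turns the central stalk. In this yeast most of these genes are repressed by glucose and are activated by the HAP complex, in which Hap4 is the activating subunit. A few of the genes, COX5B and CYC7 among them, encode isoforms used mainly at low oxygen.

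The 38 genes moved differently in the 3 strains. In the dot4 null 28 of 38 were lower, where 32.1% of all ORFs were called lower. None was called higher by limma, and 0 were higher at an unadjusted p under 0.05, where 29.9% of all ORFs were called higher. The count of 28 was 18 without set 3, 13 from the arrays with null RNA in channel 2 alone and 9 without centring. In these settings 26.0%, 27.7% and 9.07% of all ORFs were lower, so the 13 was nearer to the background. In the ubp8 null 10 were higher and 3 lower, against 30.0% and 28.7% of all ORFs, so the count higher was near the background and the count lower below it. In the dot4ubp8 null 21 were higher and 4 lower, against 35.3% and 35.2%. Without the array whose label names UCC6392, all 25 of these were called the same way. The members' median was -0.18 for the dot4 null, 0.03 for the ubp8 null and 0.17 for the dot4ubp8 null, while the medians over all ORFs were -0.01, 0.00 and 0.00. The largest change of a member was 1.65-fold, and only COX5B and CYC7, both in the dot4ubp8 null, were called with a change of at least 1.5-fold, where 5.66% of all ORFs were called that much higher.

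Several genes were called in opposite directions in different strains. COX12, COX5B, CYC1, CYT1, QCR10, SDH2, SDH4 and TIM11 were lower in the dot4 null and higher in the ubp8 null and the dot4ubp8 null. From the channel 2 arrays alone, CYC1 (-0.003), SDH4 (-0.016) and TIM11 (-0.059) were not called in the dot4 null. The share of all ORFs with each pattern of calls was not counted. A further 11 genes were lower in the dot4 null and not called in the others, among them 6 ATP synthase genes, NDI1 and COR1. Of these, ATP3, ATP5, ATP16, ATP17, ATP18, COR1 and COX8 were not called from the channel 2 arrays alone. COX4, COX5A and COX9 were lower in the dot4 null and the dot4ubp8 null, and ATP4 was lower in all 3. With the channel 2 arrays alone, COX5A, COX9 and ATP4 were not called in the dot4 null. On those arrays COX4 and COX5A were not called in the dot4ubp8 null, nor ATP4 in the ubp8 null. SDH1, QCR2, QCR8, COX7, ATP7 and ATP20 were called in the dot4ubp8 null only, all higher, and SDH3 was called in no strain.

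**Figure D1:**
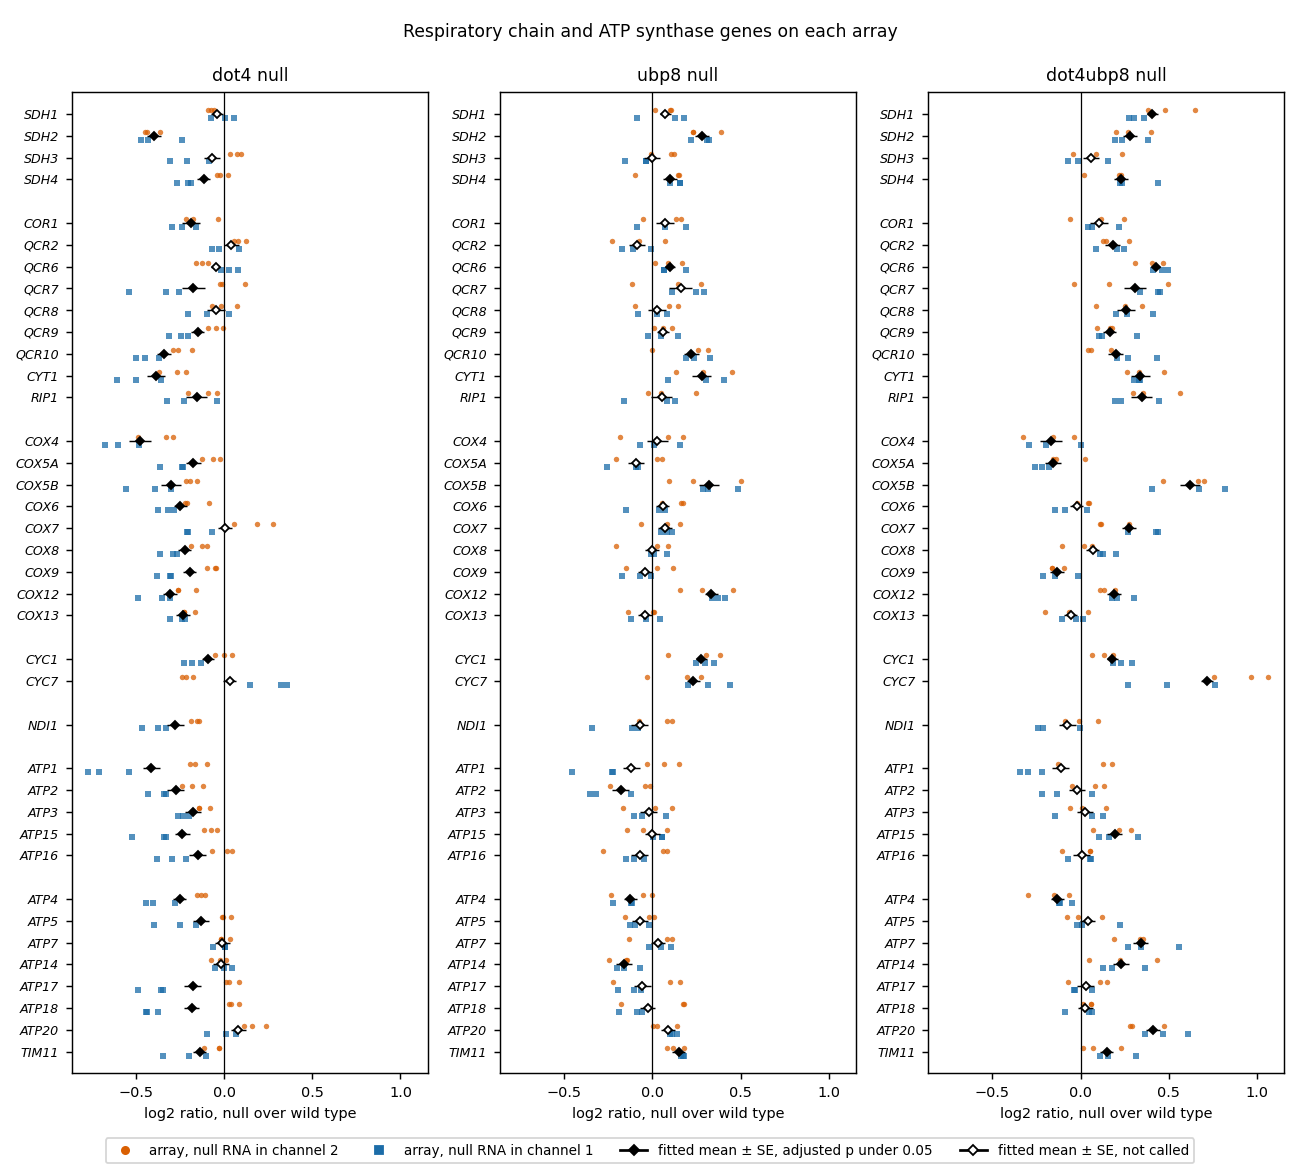
Log2 ratio of null over wild type (horizontal axis) for the 38 genes (vertical axis, in blocks for complex II, complex III, complex IV, cytochrome c, NDI1, F1, and the stalk and membrane sector) in the dot4 null, ubp8 null and dot4ubp8 null. Circles are arrays with null RNA in channel 2, squares arrays with it in channel 1, and diamonds the fitted mean ± SE of 3 set means, filled where called. The dot4 null has 28 filled diamonds left of 0, and the dot4ubp8 null 21 right of it.

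Complex II feeds electrons from succinate into the chain. SDH2 (YLL041C), its iron-sulfur subunit, had set means of -0.34, -0.40 and -0.46 for the dot4 null, 0.35, 0.27 and 0.22 for the ubp8 null and 0.39, 0.25 and 0.20 for the dot4ubp8 null. All 6 dot4 null arrays lay below 0 and all 12 others above it, so the dot4 null did not overlap with either strain. The fitted values were -0.40 ± 0.04 (limma adjusted p = 1.17e-05), 0.28 ± 0.04 (2.02e-04) and 0.28 ± 0.04 (8.62e-05). SDH1 (YKL148C), the flavoprotein subunit that oxidises succinate, had set means of 0.00, -0.04 and -0.08 (dot4 null), 0.14, 0.07 and 0.01 (ubp8 null) and 0.46, 0.39 and 0.37 (dot4ubp8 null). SDH1 was high only in the dot4ubp8 null, where its 6 arrays ran from 0.28 to 0.65 and did not overlap with the single nulls (0.41 ± 0.03, limma adjusted p = 8.70e-07). The membrane anchor SDH4 (YDR178W) was called in all 3 strains with smaller values, -0.12 ± 0.04, 0.10 ± 0.04 and 0.23 ± 0.04. The other anchor, SDH3, read -0.07, 0.00 and 0.06.

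Complex III passes electrons from ubiquinol to cytochrome c. Of its 9 genes, 6 were lower with DOT4 deleted, 3 were higher with UBP8 deleted, and 8 were higher with both deleted. The shares of all ORFs were 32.1%, 30.0% and 35.3%, so the 3 of the ubp8 null was near the background. In the dot4 null the channel 1 arrays alone gave 6 lower and the channel 2 arrays alone 3. There 35.0% and 27.7% of all ORFs were lower, so the 3 was near the background. COR1, QCR7, QCR9 and RIP1 were not called in the dot4 null from the channel 2 arrays alone. CYT1 (YOR065W) encodes cytochrome c1, the haem protein that hands electrons to cytochrome c. Its set means were -0.32, -0.36 and -0.49 in the dot4 null, 0.43, 0.30 and 0.11 in the ubp8 null and 0.33, 0.28 and 0.41 in the dot4ubp8 null, and every dot4 null array lay below every array of the other strains. The fit gave -0.39 ± 0.05, 0.28 ± 0.05 and 0.34 ± 0.05, with limma adjusted p of 1.09e-04, 0.00128 and 1.77e-04. QCR10 (YHR001W-A), a small accessory subunit, had set means of -0.36, -0.28 and -0.39 (dot4 null), 0.29, 0.28 and 0.10 (ubp8 null) and 0.24, 0.13 and 0.22 (dot4ubp8 null). Its dot4 null values were again apart from those of the other strains, which overlapped with each other (0.22 ± 0.04 and 0.20 ± 0.04).

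QCR6 (YFR033C), the acidic hinge subunit of complex III, had set means of -0.04, -0.05 and -0.06 for the dot4 null, 0.14, 0.04 and 0.12 for the ubp8 null and 0.39, 0.44 and 0.45 for the dot4ubp8 null. The 6 dot4ubp8 null arrays, from 0.31 to 0.50, lay above all 12 arrays of the single nulls (0.43 ± 0.03, limma adjusted p = 1.98e-07). RIP1 (YEL024W), the Rieske iron-sulfur protein, had set means of -0.07, -0.13 and -0.27 (dot4 null), 0.19, 0.07 and -0.09 (ubp8 null) and 0.51, 0.27 and 0.27 (dot4ubp8 null). It was lower in the dot4 null (-0.16 ± 0.06) and higher in the dot4ubp8 null (0.35 ± 0.06), and the ubp8 null values fell on both sides of 0. QCR7 (YDR529C), which binds near the cytochrome b subunit, was also lower in the dot4 null (-0.18 ± 0.06) and higher in the dot4ubp8 null (0.31 ± 0.06), as was QCR9 (-0.15 and 0.16). In the dot4 null QCR7 was -0.38 from the channel 1 arrays alone and 0.03 from the channel 2 arrays alone. QCR2 (YPR191W), a core subunit, and QCR8 were higher in the dot4ubp8 null alone (0.18 and 0.26). The other core subunit, COR1 (YBL045C), was lower in the dot4 null (-0.19) and was the only complex III gene not called in the dot4ubp8 null, at 0.10.

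Complex IV, cytochrome c oxidase, moved unevenly. Of its 9 genes 8 were lower in the dot4 null, all but COX7, where 32.1% of all ORFs were. The channel 1 arrays alone gave 9 lower and the channel 2 arrays alone 5, where 35.0% and 27.7% of all ORFs were. In the ubp8 null only COX12 and COX5B were called, both higher, where 30.0% of all ORFs were. In the dot4ubp8 null COX5B, COX7 and COX12 were higher and COX4, COX5A and COX9 lower. There 35.3% and 35.2% of all ORFs were, so both counts were near the background. COX4 (YGL187C), a zinc-binding subunit required for assembly, had set means of -0.47, -0.39 and -0.58 for the dot4 null, 0.17, 0.05 and -0.13 for the ubp8 null and -0.02, -0.31 and -0.17 for the dot4ubp8 null. The dot4 null arrays, from -0.68 to -0.29, gave the lowest mean of any member, and they overlapped with the dot4ubp8 null arrays, from -0.33 to 0.01, at 1 end. The fit gave -0.48 ± 0.06 in the dot4 null, 1.39-fold lower (limma adjusted p = 7.03e-05), and -0.17 ± 0.06 in the dot4ubp8 null (limma adjusted p = 0.0319).

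COX12 (YLR038C), a peripheral subunit on the intermembrane side, had set means of -0.31, -0.23 and -0.38 (dot4 null), 0.43, 0.33 and 0.24 (ubp8 null) and 0.20, 0.14 and 0.22 (dot4ubp8 null). All 6 dot4 null arrays were below 0 and all 12 others above it. The fit gave -0.31 ± 0.04, 0.33 ± 0.04 and 0.19 ± 0.04, with limma adjusted p of 5.75e-05, 5.34e-05 and 0.00115. COX6, COX8 and COX13 were lower in the dot4 null (-0.25, -0.22 and -0.23) and were not called elsewhere. COX9 was lower in the dot4 null (-0.20) and the dot4ubp8 null (-0.13). COX7 was called in the dot4ubp8 null alone (0.27 ± 0.04), and its dot4 null arrays were split by channel, -0.21, -0.07 and -0.21 with null RNA in channel 1 and 0.06, 0.19 and 0.28 on the channel 2 arrays.

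COX5A (YNL052W) and COX5B (YIL111W) encode alternative forms of subunit 5, the first used mainly with ample oxygen and the second mainly at low oxygen. COX5B had set means of -0.25, -0.27 and -0.39 for the dot4 null, 0.49, 0.26 and 0.21 for the ubp8 null and 0.53, 0.57 and 0.76 for the dot4ubp8 null. COX5A had -0.13, -0.15 and -0.24 (dot4 null), -0.02, -0.03 and -0.23 (ubp8 null) and -0.08, -0.21 and -0.18 (dot4ubp8 null). COX5B was low in the dot4 null and high in the other strains, and COX5A was below 0 in every set mean. The fit gave -0.30 ± 0.06, 0.32 ± 0.06 and 0.62 ± 0.06 for COX5B, the last 1.54-fold higher (limma adjusted p = 2.93e-06). For COX5A it gave -0.18 ± 0.04, -0.09 ± 0.04 and -0.15 ± 0.04, called in the dot4 null and the dot4ubp8 null. The difference of the log2 ratios of COX5B and COX5A within an array does not depend on centring. It was -0.13 ± 0.01 (SD, n = 3 sets) in the dot4 null and below 0 on all 6 arrays. It was 0.41 ± 0.12 in the ubp8 null and 0.78 ± 0.16 in the dot4ubp8 null, above 0 on all 6 arrays of each. With 3 sets an exact sign-flip test cannot go below p = 0.25.

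Cytochrome c, the soluble carrier between complexes III and IV, is encoded by CYC1 (YJR048W), the main form in air, and CYC7 (YEL039C), the form associated with low oxygen. CYC7 had set means of -0.02, 0.07 and 0.04 for the dot4 null, 0.32, 0.14 and 0.24 for the ubp8 null and 0.67, 0.73 and 0.76 for the dot4ubp8 null. The dot4ubp8 null set means lay above all others, while its arrays, from 0.27 to 1.06, overlapped with those of the single nulls. The fit gave 0.72 ± 0.04 in the dot4ubp8 null, 1.65-fold higher (limma adjusted p = 3.08e-08), and 0.23 ± 0.04 in the ubp8 null (limma adjusted p = 3.04e-04). CYC7 was not called in the dot4 null (0.03 ± 0.04), but there it was above 0 on the 3 arrays with null RNA in channel 1 and below 0 on the 3 with it in channel 2. CYC1 had set means of -0.14, -0.07 and -0.07 (dot4 null), 0.34, 0.28 and 0.22 (ubp8 null) and 0.18, 0.12 and 0.24 (dot4ubp8 null), lowest in the dot4 null with no overlap with the other strains. It was called lower in the dot4 null (-0.09 ± 0.03) and higher in the ubp8 null (0.28 ± 0.03) and dot4ubp8 null (0.18 ± 0.03). The within-array difference of CYC7 and CYC1 was 0.54 ± 0.06 (SD, n = 3 sets) and above 0 on all 6 arrays in the dot4ubp8 null. For each single null it was above 0 on 3 arrays and below 0 on 3.

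**Figure D2:**
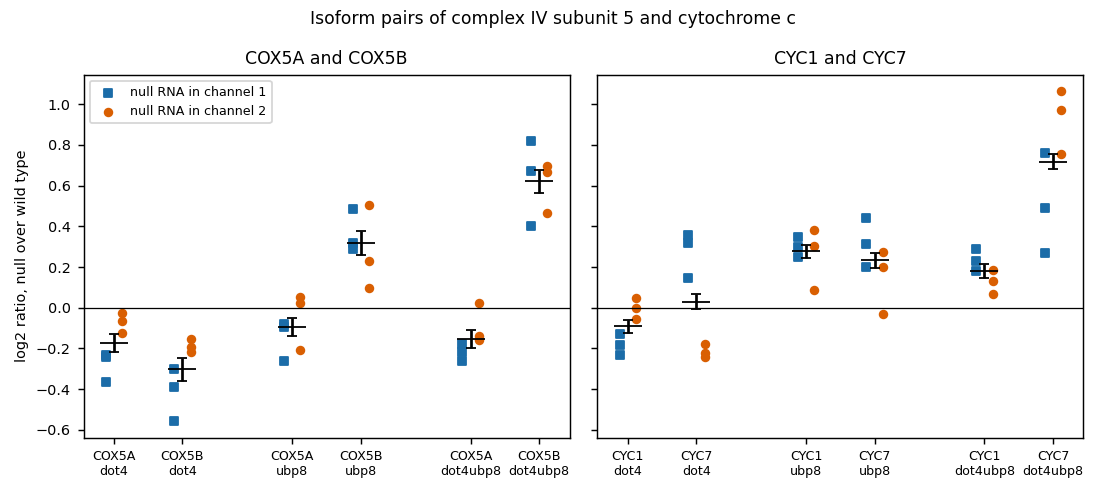
Log2 ratio of null over wild type (vertical axis) for the isoform genes COX5A and COX5B (left) and CYC1 and CYC7 (right) in each strain. Squares are arrays with null RNA in channel 1, circles arrays with it in channel 2, and the black marks the fitted mean ± SE of 3 set means. COX5B and CYC7 reach 0.62 and 0.72 in the dot4ubp8 null, and the CYC7 arrays of the dot4 null fall on both sides of 0 by channel.

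NDI1 (YML120C), the internal NADH dehydrogenase, had set means of -0.24, -0.26 and -0.33 for the dot4 null, 0.01, -0.02 and -0.21 for the ubp8 null and 0.05, -0.16 and -0.11 for the dot4ubp8 null. All 6 dot4 null arrays lay below 0 (-0.28 ± 0.05, limma adjusted p = 5.30e-04). In the other strains the arrays fell on both sides of 0 and the gene was not called (-0.07 ± 0.05 and -0.08 ± 0.05).

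Of the 13 ATP synthase genes 10 were lower in the dot4 null, where 32.1% of all ORFs were, and the calls of the other strains went both ways. All 5 F1 genes and 5 of 8 stalk and membrane genes were lower in the dot4 null. The channel 1 arrays alone gave the same counts, 5 and 5, where 35.0% of all ORFs were lower. The channel 2 arrays alone gave 2 and 0, where 27.7% of all ORFs were lower. ATP1 (YBL099W), the alpha subunit of F1, had set means of -0.32, -0.45 and -0.47 for the dot4 null, -0.04, -0.08 and -0.24 for the ubp8 null and -0.02, -0.21 and -0.11 for the dot4ubp8 null. The dot4 null arrays were all below 0, but the 3 with null RNA in channel 1 were all lower than the 3 with it in channel 2. The fit gave -0.41 ± 0.05, 1.33-fold lower (limma adjusted p = 2.91e-05), and uncalled values of -0.12 ± 0.05 and -0.11 ± 0.05 in the other strains. ATP2 (YJR121W), the catalytic beta subunit, was lower in the dot4 null (-0.28 ± 0.05) and the ubp8 null (-0.18 ± 0.05), and it read -0.02 in the dot4ubp8 null. ATP3, the gamma subunit of the central stalk, and ATP16, the delta subunit, were lower in the dot4 null only (-0.18 and -0.15). From the channel 2 arrays alone they read -0.12 and -0.004 there and were not called. ATP15 (YPL271W), the epsilon subunit, was lower in the dot4 null (-0.24 ± 0.04) and was the only F1 gene called in the dot4ubp8 null, where it was higher (0.19 ± 0.04).

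Within the stalk and membrane sector, ATP4 (YPL078C), subunit b of the stator stalk, had set means of -0.22, -0.27 and -0.27 (dot4 null), -0.08, -0.06 and -0.23 (ubp8 null) and -0.10, -0.21 and -0.09 (dot4ubp8 null), below 0 in every set. It was the only member lower in all 3 strains, at -0.25 ± 0.04, -0.13 ± 0.04 and -0.13 ± 0.04. From the channel 2 arrays alone ATP4 was called in the dot4ubp8 null only. ATP14 (YLR295C), subunit h of the same stalk, had set means of -0.02, -0.01 and -0.02 (dot4 null), -0.11, -0.20 and -0.18 (ubp8 null) and 0.40, 0.18 and 0.12 (dot4ubp8 null). Its ubp8 null and dot4ubp8 null values did not overlap, and it was lower in the first (-0.16 ± 0.05) and higher in the second (0.23 ± 0.05). ATP7 (YKL016C), subunit d of the stalk, was higher in the dot4ubp8 null only, with set means of 0.46, 0.23 and 0.34 there, against -0.01, 0.02 and -0.04 in the dot4 null and 0.11, 0.03 and -0.04 in the ubp8 null. All 6 dot4ubp8 null arrays lay above those of the single nulls (0.34 ± 0.04, limma adjusted p = 2.53e-05).

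ATP20 (YPR020W) and TIM11 (YDR322C-A) encode subunits g and e, which take part in joining the enzyme into dimers. ATP20 had set means of 0.09, 0.13 and 0.03 (dot4 null), 0.14, 0.06 and 0.06 (ubp8 null) and 0.54, 0.33 and 0.37 (dot4ubp8 null), and all 6 dot4ubp8 null arrays lay above those of the single nulls (0.41 ± 0.04, limma adjusted p = 4.05e-06). TIM11 was lower in the dot4 null (-0.14 ± 0.04) and higher in the ubp8 null (0.15 ± 0.04) and the dot4ubp8 null (0.15 ± 0.04). ATP5, ATP17 and ATP18, for subunits OSCP, f and i/j, were lower in the dot4 null (-0.13, -0.18 and -0.19) and not called in the other strains.

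Medians over the complexes differed within the arrays. In the dot4ubp8 null the complex medians of sets 1, 2 and 3 were 0.36, 0.19 and 0.22 for complex II, 0.31, 0.15 and 0.26 for complex III and 0.04, -0.05 and -0.04 for complex IV. For the whole ATP synthase they were 0.11, -0.05 and 0.05. Complexes II and III were thus above 0 in all sets and complex IV in 1. The complex III median minus the complex IV median was 0.26 ± 0.05 (SD, n = 3 sets) in the dot4ubp8 null, 0.08 ± 0.08 in the dot4 null and 0.07 ± 0.03 in the ubp8 null, and it was above 0 on all 18 arrays. The complex II median minus the complex IV median was 0.27 ± 0.04, 0.14 ± 0.03 and 0.07 ± 0.05 in the same order, above 0 on every array but 1 of the ubp8 null. These differences within an array are unaffected by its centring, and the genes of a complex are not replicates.

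Compared directly, 22 of the 38 genes were lower in the dot4 null than in the ubp8 null, where 30.2% of all ORFs were. Limma called none higher (27.9% of all ORFs were), and 1 was higher at an unadjusted p under 0.05. The largest differences of the dot4 null from the ubp8 null were those of SDH2 (-0.68 ± 0.06), CYT1 (-0.67 ± 0.08) and COX12 (-0.64 ± 0.05), with limma adjusted p of 4.63e-06, 3.53e-05 and 5.20e-06. SDH2, CYT1, COX5B and COX12 differed by at least 1.5-fold, a size at which 2.45% of all ORFs were lower. The set means of these genes, given above, did not overlap between the 2 strains. The genes were picked by that difference, so the lack of overlap adds no support. The count of 22 was 12 from the arrays with null RNA in channel 2 alone and 6 without centring. In these settings 20.5% and 7.75% of all ORFs were lower.

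All 38 genes read higher in the dot4ubp8 null than in the dot4 null, and 32 were called, against 29.0% of all ORFs. Limma called none lower, and 0 were lower at an unadjusted p under 0.05, where 29.2% of all ORFs were called lower. COX5B differed by 0.92 ± 0.08, CYT1 by 0.73 ± 0.08 and CYC7 by 0.69 ± 0.05, and with SDH2 (0.68) these were the 4 genes past 1.5-fold, where 4.05% of all ORFs were. COX5A (0.02) and COX9 (0.06) differed least. The count of 32 was 18 from the arrays with null RNA in channel 2 alone and 11 without centring. In these settings 24.7% and 10.7% of all ORFs were higher. Against the ubp8 null, 12 genes were higher in the dot4ubp8 null, where 23.2% of all ORFs were, and none was called lower by limma (2 at an unadjusted p under 0.05, 21.0% of all ORFs called). The share of members higher, 12 of 38, was nearer to the background here. CYC7 (0.49 ± 0.05), ATP14 (0.39 ± 0.06) and SDH1 (0.33 ± 0.05) differed most. The 3 comparisons share samples and are given side by side.

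The dot4ubp8 null was also set against the sum of the single nulls on the log2 scale. For 37 of 38 genes the dot4ubp8 null read above the sum, and 24 were called above it, where 11.9% of all ORFs were. Limma called none below the sum, and 0 were below it at an unadjusted p under 0.05, while 8.41% of all ORFs were called below. COX5B read -0.30 and 0.32 in the single nulls and 0.62 in the dot4ubp8 null, which put it 0.60 ± 0.10 above the sum (limma adjusted p = 0.00273). CYC7 was 0.46 ± 0.06 and RIP1 0.45 ± 0.10 above it (limma adjusted p = 0.00104 and 0.0136), although CYC7 stood at -0.09 from the channel 1 arrays alone. The called genes included 10 of 13 in the ATP synthase and 6 of 9 in complex III, but 3 of 9 in complex IV. CYC1 was the 1 gene at or below the sum, at -0.01 ± 0.06. The count depended on the arrays used. It was 33 from the arrays with null RNA in channel 1 and 11 from those with it in channel 2, where 15.9% and 17.3% of all ORFs were called. It was 1 without centring, where 1.69% of all ORFs were called, and 14 without set 3 of the dot4 null, where 7.3% were.

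**Figure D3:**
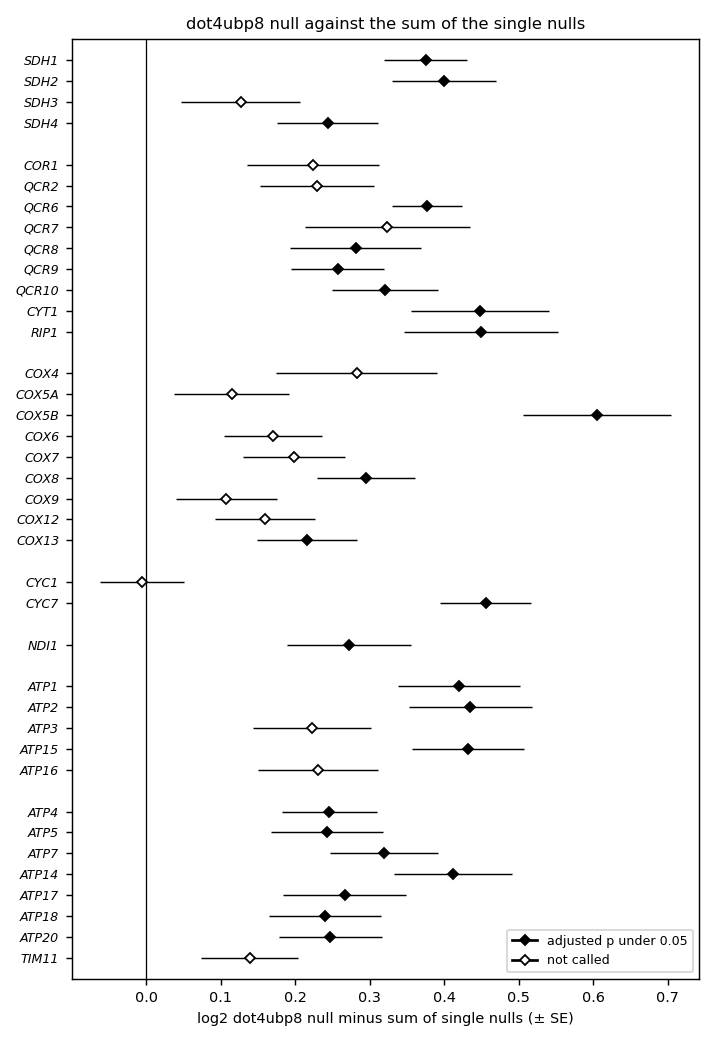
Value of the dot4ubp8 null minus the sum of the dot4 null and ubp8 null on the log2 scale (horizontal axis, estimate ± SE from the limma fit) for each gene (vertical axis, grouped by complex as before). Filled marks are the 24 genes called above the sum. COX5B lies farthest right, at 0.60, and CYC1 lies at 0.

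The dot4 null values depended on which channel held null RNA. With it in channel 1 the median over the 38 genes was -0.28 ± 0.07 (SD, n = 3 arrays), and with it in channel 2 it was -0.08 ± 0.02. Counted from 1 orientation at a time, 30 genes were lower with null RNA in channel 1 and 13 in channel 2, where 35.0% and 27.7% of all ORFs were. In both orientations 11 were lower, as were 13.3% of all ORFs. On single arrays 21 of 38 genes lay below 0 on all 6, as did 1301 of all 6205 ORFs. The difference between orientations, channel 2 minus channel 1, was itself tested. It was called above 0 for 26 genes and below 0 for 2 in the dot4 null, against 32.5% and 26.2% of all ORFs. In the ubp8 null 6 genes had a difference called above 0, against 15.9%. Limma called none below it there (0 at an unadjusted p under 0.05), against 14.8%. In the dot4ubp8 null 4 were called above 0 and 2 below, against 15.2% and 14.3%, below the background. The counts called above 0 were 15 without set 2 and 16 without set 3 of the dot4 null. They were 3 without set 1 and 2 without set 2 of the ubp8 null. For the dot4ubp8 null they were 2 without set 1 and 1 without set 2.

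Single genes showed how large the channel difference could be. ATP1 read -0.54, -0.71 and -0.77 in the dot4 null with null RNA in channel 1 and -0.10, -0.19 and -0.16 on the channel 2 arrays. The difference was 0.52 ± 0.06, and it was also called in the ubp8 null (0.36 ± 0.06) and the dot4ubp8 null (0.35 ± 0.06), with limma adjusted p of 1.15e-04, 0.00203 and 0.00302. NDI1 had a called difference in all 3 strains as well (0.23, 0.22 and 0.15). ATP18 read -0.44, -0.38 and -0.44 and then 0.04, 0.02 and 0.08, so that it was below 0 in 1 orientation and above 0 in the other. ATP17 showed the same split, -0.36, -0.35 and -0.49 against 0.02, 0.08 and 0.01.

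The cytochrome c gene CYC7 went the other way in the dot4 null. It read 0.15, 0.36 and 0.32 with null RNA in channel 1 and -0.18, -0.22 and -0.24 on the channel 2 arrays, a difference of -0.49 ± 0.13 (limma adjusted p = 0.01). In the dot4ubp8 null the order was turned, 0.27, 0.49 and 0.76 against 1.06, 0.97 and 0.76, a difference of 0.42 ± 0.13 (limma adjusted p = 0.0366). QCR6 was the other gene whose difference was called below 0 in the dot4 null (-0.16, but 0.18 without centring). In the dot4ubp8 null those of COX7 (-0.21) and QCR10 (-0.21) were called below 0. By contrast SDH2 read -0.24, -0.43 and -0.47 and -0.44, -0.37 and -0.45 in the dot4 null, with no call for its orientation difference in any strain, though without centring that of the dot4 null was 0.29 and called (limma adjusted p = 0.0196). The part of the dyes, the scans or the RNA preparations in these differences was not tested.

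Counts by orientation also differed in the other strains. With both genes deleted 22 were higher with null RNA in channel 1 and 17 in channel 2, where 35.1% and 29.8% of all ORFs were, and 17 were higher in both, as were 23.3% of all ORFs. All 6 dot4ubp8 null arrays were above 0 for 20 of 38 genes, as for 27.8% of all ORFs. With UBP8 deleted 12 and 8 genes were higher, where 31.6% and 18.9% of all ORFs were, both near the background. Of them 7 were higher in both, as were 11.75% of all ORFs. Those lower there were 9 in channel 1, against 32.0% of all ORFs, and 1 in channel 2, against 1117 of 6205 ORFs, both below the background. The ATP synthase held most of those 9, with 3 F1 genes and 4 of the stalk and membrane sector.

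**Figure D4:**
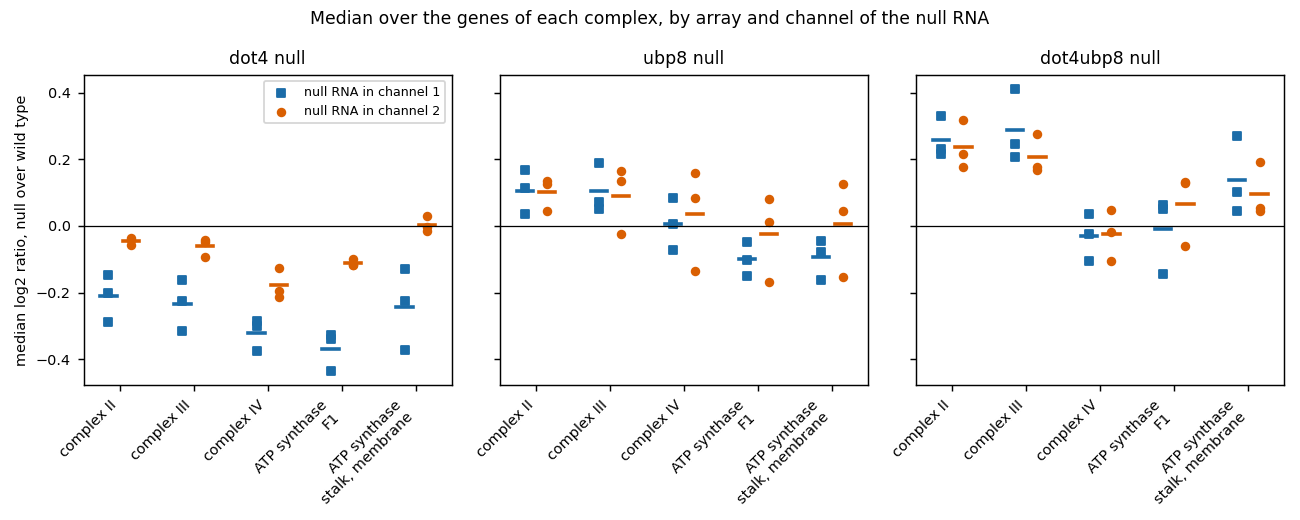
Median log2 ratio of null over wild type (vertical axis) over the genes of each complex (horizontal axis) on each array, in the dot4 null, ubp8 null and dot4ubp8 null. Squares are arrays with null RNA in channel 1, circles arrays with it in channel 2, and bars their means. In the dot4 null the F1 arrays centre on -0.37 ± 0.06 and -0.11 ± 0.01 (SD) by channel, and in the dot4ubp8 null complexes II and III lie above 0 and complex IV around 0.

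The members also moved together between sets of the same strain. Set 3 was the lowest of the 3 for 33 of 38 genes in the dot4 null and for 33 in the ubp8 null, compared with 33.1% and 42.4% of all ORFs. In the ubp8 null the median over the 38 genes was 0.11, 0.04 and -0.08 in sets 1, 2 and 3, and set 1 was the highest for 36, as it was for 29.7% of all ORFs. Counts changed when such a set was left out. Without set 3 of the dot4 null 18 genes were lower in that strain. The calls lost there were those of ATP5, ATP16, ATP17, TIM11, COR1, QCR7, RIP1, SDH4, CYC1 and COX5A, of which SDH4 and CYC1 also lost theirs without set 1, and ATP5, QCR7, RIP1 and CYC1 without set 2. Without set 1 of the ubp8 null 5 genes were lower there and without set 3 there was 1. In the ubp8 null SDH4 and QCR6 were not called without set 1, SDH4 and ATP14 without set 2, and ATP2 and ATP4 without set 3. Without set 2 of the dot4ubp8 null, or without centring, 0 were lower in that strain. COX4, COX5A, COX9 and ATP4 were the calls lost without that set, and COX4 was also lost without set 3. Centring mattered too, because without it the all-ORF median of the dot4 null stood at 0.08 and 9 genes were lower, where 9.07% of all ORFs were. No gene was lower in the ubp8 null without centring.

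Genes that work with the chain were examined in 10 further lists of 95 measured genes, and each list is described by its count and median. With DOT4 deleted, the all-ORF background for these counts was 29.9% called higher and 32.1% called lower. With UBP8 deleted it was 30.0% and 28.7%, and with both deleted 35.3% and 35.2%. A count near these shares, such as 3 and 3 of the 10 regulators in the ubp8 null, does not set its list apart. Among 10 regulators of respiratory genes, 5 were higher and 1 lower for the dot4 null, 3 and 3 for the ubp8 null, and 7 and 1 for the dot4ubp8 null (medians 0.09, 0.01 and 0.14). HAP4, the activating subunit of the HAP complex, had set means of 0.44, 0.48 and 0.34 for the dot4 null, -0.03, -0.02 and -0.06 for the ubp8 null and 0.68, 0.54 and 0.35 for the dot4ubp8 null. It was high in the dot4 null (0.42 ± 0.05) and dot4ubp8 null (0.52 ± 0.05), with no overlap with the ubp8 null (-0.04 ± 0.05), whereas the 38 genes were mostly lower in the first and mostly higher in the second. ROX1, the repressor of genes used at low oxygen, was higher in all 3, at 0.55 ± 0.03, 0.24 ± 0.03 and 0.82 ± 0.03. HAP1, the haem-responsive activator of CYC1 and CYC7, was called in the ubp8 null (-0.26 ± 0.07) and not in the dot4 null (-0.04) or dot4ubp8 null (-0.16). Its dot4 null arrays read 0.21, 0.30 and 0.46 with null RNA in channel 1 and -0.51, -0.29 and -0.39 on the channel 2 arrays.

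Among 10 assembly factors and inhibitors of the ATP synthase, 5 were lower and 0 higher for the dot4 null (median -0.09), 1 lower and 6 higher in the ubp8 null (0.12), and 3 lower and 5 higher in the dot4ubp8 null (0.09). INH1 and STF1 encode inhibitors of ATP hydrolysis by the F1 part. INH1 had set means of -0.39, -0.39 and -0.54 (dot4 null), 0.53, 0.22 and 0.17 (ubp8 null) and 0.95, 0.57 and 0.75 (dot4ubp8 null), and these did not overlap between strains. Its fitted values were -0.44 ± 0.07, 0.30 ± 0.07 and 0.76 ± 0.07. The within-array difference of INH1 and ATP1, a pair chosen after the values were seen, was 0.87 ± 0.09 (SD, n = 3 sets) in the dot4ubp8 null and 0.42 ± 0.14 in the ubp8 null, above 0 on every array of both. In the dot4 null it was -0.03 ± 0.07 and split by channel. STF1 read -0.70 ± 0.04, 0.37 ± 0.04 and 0.40 ± 0.04, and all 6 of its dot4 null arrays were below 0.

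Of 22 assembly and translation factors of complex IV, 11 were lower and 2 higher for the dot4 null (median -0.12), 3 lower and 11 higher in the ubp8 null (0.08), and 8 lower and 10 higher in the dot4ubp8 null (0.07). PET117 (-0.47 ± 0.04) and COX15 (-0.44 ± 0.04), which makes haem A, led the lower genes in the dot4 null. COX19, a copper-binding factor, read 0.39, -0.16 and 0.43, called in each. Of 9 measured assembly factors of complexes II and III, 4 were lower and 1 higher for the dot4 null, 2 and 3 for the ubp8 null, and 3 and 3 for the dot4ubp8 null (medians -0.04, 0.05 and -0.01). Of 8 genes of haem synthesis, 3 were lower and 4 higher for the dot4 null, 2 and 3 for the ubp8 null, and 2 and 3 for the dot4ubp8 null (medians 0.07, -0.07 and 0.04). HEM15, the ferrochelatase, was lower in the dot4 null (-0.55 ± 0.05) and the dot4ubp8 null (-0.73 ± 0.05).

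Among 11 genes of the tricarboxylic acid cycle, 7 were lower and 1 higher for the dot4 null (median -0.23), 6 were higher in the ubp8 null (0.15), and 4 were higher and 4 lower in the dot4ubp8 null (-0.02). CIT1, citrate synthase, was lower in the dot4 null (-0.46 ± 0.04), while IDH1, a subunit of isocitrate dehydrogenase, was higher in all 3 (0.19, 0.30 and 0.71), the first of them at -0.02 from the channel 1 arrays alone. ACO1, aconitase, was 0.66 ± 0.04 in the dot4ubp8 null. Of 5 other electron donors to the chain, 3 were higher for the dot4 null and 2 for the ubp8 null. For the dot4ubp8 null 3 were higher and 1 lower (medians 0.08, 0.06 and 0.27 in the 3 strains). NDE2, an external NADH dehydrogenase, was 0.26 in the ubp8 null and 0.90 in the dot4ubp8 null, but -0.19 in the ubp8 null from the channel 2 arrays alone. CYB2, which passes electrons from lactate to cytochrome c, rose in all 3 (0.17, 0.45 and 0.71), with the dot4 null at -0.07 from the channel 2 arrays alone.

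Of 10 genes of ubiquinone synthesis, 7 were lower and 1 higher for the dot4 null (median -0.16), and 3 were higher and 2 lower in the ubp8 null (0.04) and 2 and 3 in the dot4ubp8 null (0.01). Among 5 carriers of ADP, ATP and phosphate, 2 were higher and 2 lower in each single null and 3 and 1 in the dot4ubp8 null (medians -0.03, -0.07 and 0.20). POR1, the outer membrane channel, was lower in every strain (-0.29, -0.28 and -0.49). Among 5 measured paralogs and later-named subunits, 3 were higher and 1 lower for the dot4 null, 1 and 1 for the ubp8 null, and 2 and 1 for the dot4ubp8 null (medians 0.11, 0.00 and 0.13). SDH9, a paralog of SDH1, was 0.11, 0.34 and 0.73, called higher in each. SDH9 and SDH1 are similar in sequence, and the array design is not given in the sources used here, so signal shared between them cannot be told apart. The same holds for the isoform pairs. Genes encoded in the mitochondrial DNA were not analysed here.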

How the data were processed

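The values deposited are log2 ratios, 1 for each ORF on each array. How the authors corrected background and normalized, and the array design, is not given in the sources used here. Channel intensities were not used, so no gene could be called present or absent. Per the labels, each array carried null RNA in 1 channel and wild type RNA in the other, and the dye of each channel is not settled by them. Scale and direction were read from the values: a stand-in of 16.6, the log2 of 1e+05, occurred 2 times and was treated as missing with 9 empty values, and the 2 deleted genes set the direction as channel 2 over channel 1. The columns were not centred as deposited, with medians from -0.18 to 0.30.

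Arrays were median-centred, those with null RNA in channel 1 had their sign turned, and averaging each set gave 9 set means. Limma 3.58.1 under R 4.3.3 estimated a mean per genotype over 6205 ORFs with moderated variances (lmFit, eBayes), with contrasts between genotypes, and a second fit tested channel 2 minus channel 1 values per set. Within each comparison p-values were given the Benjamini-Hochberg adjustment. The procedure was tested on simulated data. The number of arrays limits the precision, and the median SD between set means was 0.041, 0.052 and 0.064 in the dot4, ubp8 and dot4ubp8 nulls.

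The members and lists were chosen with earlier results of these data known. The genes named are, per strain and role, the 2 called members with the largest change and all set means on the same side, COX5A, COX5B, CYC1, CYC7, COX4, ATP1, NDI1 and 3 regulators, up to 2 per direction of each other list, and up to 3 per direction in each contrast. Other members were added after their values were seen, to account for every gene. Symbols came from a RefSeq table of the R64 assembly, which matched 5705 ORFs and all 38 members. Planned counts of promoter motifs were not run, because promoter sequences were not used here. Alternatives are described at the end.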

Additional observations from a re-analysis of the deposited data

Results flagged for a closer look

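Among 135 groups of 6 arrays checked for a single array far from the rest, 4 stood out, where chance would mark about 1 in 20. COX8 in the ubp8 null read -0.21 in set 3 with null RNA in channel 2, against -0.01 to 0.09 on the other 5 arrays. QCR9 in the dot4ubp8 null read 0.32 in set 1 with null RNA in channel 1, against 0.09 to 0.18, and ATP18 read -0.089 in set 2 with null RNA in channel 1, against 0.016 to 0.067. SDH4, a membrane anchor of complex II, stood out in the ubp8 null. Set 3 with null RNA in channel 2 read -0.10, while the other 5 arrays lay between 0.10 and 0.16. Without set 3, SDH4 was 0.14 ± 0.04 (SE) with limma adjusted p = 0.0274, against a range of 0.00508 to 0.429 over its alternatives, and it was called from the channel 1 arrays alone but not from the channel 2 arrays alone.

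The effect of losing UBP8 differed between strains with and without DOT4 for 24 genes, by limma's contrast of the dot4ubp8 null with the summed single nulls. In complex II the difference was 0.38 for SDH1, 0.40 for SDH2 and 0.24 for SDH4. In complex III it was 0.38 for QCR6, 0.28 for QCR8, 0.26 for QCR9, 0.32 for QCR10, 0.45 for CYT1 and 0.45 for RIP1. In complex IV it was 0.60 for COX5B, 0.29 for COX8 and 0.22 for COX13. It was 0.46 for CYC7 and 0.27 for NDI1. In the F1 part it was 0.42 for ATP1, 0.44 for ATP2 and 0.43 for ATP15. In the stalk and membrane sector it was 0.25 for ATP4, 0.24 for ATP5, 0.32 for ATP7, 0.41 for ATP14, 0.27 for ATP17, 0.24 for ATP18 and 0.25 for ATP20. From the channel 2 arrays alone that of ATP18 was -0.061. In the dot4 null ATP1, ATP17 and ATP18 also had called differences between the 2 orientations, of 0.52, 0.44 and 0.47.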

How the results depend on the processing

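Centring set many of the counts. Without it, 9 members were lower for the dot4 null, 0 for the ubp8 null and 0 for the dot4ubp8 null. Also without it, 6 were lower in the dot4 null than in the ubp8 null. In the dot4ubp8 null 11 were then called higher than in the dot4 null, and 1 was called above the sum of the single nulls. The orientation difference was then called below 0 for 0 members in the dot4 null and above 0 for 16 in the ubp8 null. In the dot4ubp8 null it was called above 0 for 1 and below 0 for 0. The all-ORF median of that difference moved to 0.35 in the dot4 null and 0.24 in the ubp8 null, and that of the dot4ubp8 null minus the dot4 null to -0.10. The uncentred medians in the dot4 null were -0.091 over all members, -0.079 over the ATP synthase, -0.0028 over complex II, -0.063 over complex III, -0.15 over complex IV, -0.15 over F1 and -0.041 over the stalk and membrane sector, and the cytochrome c median of 2 genes turned from -0.031 to 0.059. For the orientation difference of the dot4 null the sign turned for QCR6 (0.18), SDH1 (0.26), SDH2 (0.29) and ATP14 (0.31).

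The channel mattered as well. From the channel 1 arrays alone 1 member was higher in the dot4 null and 9 were lower in the ubp8 null. From the channel 2 arrays alone 2 were higher and 13 lower for the dot4 null, 1 was lower in the ubp8 null and 2 in the dot4ubp8 null. The same arrays gave 12 lower in the dot4 null than in the ubp8 null. They gave 18 called higher in the dot4ubp8 null than in the dot4 null and 11 called above the sum. Turned signs are listed here only for values called in at least 1 of the 2 fits. Signs turned with channel 2 alone for the called members ATP18 (0.049), ATP17 (0.039), QCR7 (0.026) and ATP5 (0.0050) and for CYC7 (-0.21), CYB2 (-0.073), MIR1 (0.054) and SHH3 (-0.055) in the dot4 null and for CAT8 (-0.012) and NDE2 (-0.19) in the ubp8 null, for COX7 (-0.0063) and ATP18 (-0.0033) in the dot4ubp8 null minus the dot4 null, and for ATP18 (-0.061) against the sum. They turned with channel 1 alone for HAP1 (0.32), COX7 (-0.16) and IDH1 (-0.015) in the dot4 null, COQ6 (-0.043) in the dot4ubp8 null, and CYC7 (-0.087) against the sum.

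Fitting all 18 arrays with a dye term gave 6 members lower in the ubp8 null, 2 higher in the dot4 null than in the ubp8 null, and 2 lower in the dot4ubp8 null than in the ubp8 null. Array weights gave 1 higher in the dot4 null, 16 higher in the ubp8 null, 8 lower in the dot4ubp8 null, 1 higher in the dot4 null than in the ubp8 null and 6 lower in the dot4ubp8 null than in the ubp8 null. Using each genotype's own spread gave 1 higher in the dot4 null. Scaling the arrays gave 17 orientation differences called above 0 and 1 called below it in the dot4 null. In the dot4ubp8 null it gave 2 and 0. Alternatives for the dot4ubp8 null against each single null were chosen after seeing the data. The cause of these moves was not tested.

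Between strains, same-numbered sets correlated between -0.257 and 0.274 and differently numbered sets between -0.331 and 0.297. These ranges overlap, so they do not settle whether the set numbers paired the samples. With the set number as a replicate block, 5 members were lower in the ubp8 null. Leaving out each set in turn gave 0 higher and 18 to 26 lower in the dot4 null, 8 to 14 higher and 1 to 5 lower in the ubp8 null, and 21 to 22 higher and 0 to 6 lower in the dot4ubp8 null. The dot4 null minus the ubp8 null gave 0 to 1 higher and 18 to 29 lower. The dot4ubp8 null gave 27 to 34 higher and 0 lower against the dot4 null, and 9 to 13 higher and 0 to 3 lower against the ubp8 null. Against the sum 14 to 24 were called above and 0 below. Called orientation differences were 15 to 22 above 0 and 0 to 1 below in the dot4 null, and 2 to 6 above and 0 below in the ubp8 null. In the dot4ubp8 null they were 1 to 3 above and 0 to 3 below. Of 5722 recomputed values of single genes, 5066 kept their side of the threshold, 476 lost their call and 158 gained one. A further 22 changed sign with a call in at least 1 of the 2 fits. Sign changes of values called in neither fit were counted among the 5066. The planned counts of promoter motifs were not run.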
